A study of Mus musculus with 6 samples.

Results

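Hepcidin and the genes around it that sense, carry, store and export iron were followed in mouse liver after toxic injury. The group was set by gene symbol and holds 10 genes, *Hamp*, *Hamp2*, *Bmp6*, *Id1*, *Tfr2*, *Tfrc*, *Trf*, *Fth1*, *Ftl1* and *Slc40a1*, of 24346 genes in the deposited table. All 10 passed the filter on low values, which left 11956 genes to test. RNA of whole liver was sequenced from 6 male C57/BL6 mice aged 8 weeks, each taken 24 hours after an intraperitoneal injection of CCl4 in sunflower oil at 0.6 μl per g of body weight. CCl4 is a liver toxin, so every liver in both groups had met the toxin, and no liver without it is compared here. The groups were not equally injured in the study, which reports less necrosis, fewer dying cells and lower serum ALT and AST in *med23* Δli mice at 24 hours. The part of this difference in injury in the values below was not tested. The 3 control mice, labelled wt, carried the floxed *Med23* allele alone (*med23* f/f), and the 3 mice labelled med23 ko (*med23* Δli) also carried *Albumin*-cre, a recombinase driven in hepatocytes. The study describes the deletion as specific to hepatocytes, so endothelial and Kupffer cells are taken to keep *Med23*, which was not measured by cell type. MED23 is a subunit of Mediator, the complex that links transcription factors to RNA polymerase. The comparison asks which iron genes differed between CCl4-treated livers with and without the hepatocyte deletion. Values are FPKM, a fragment count scaled for transcript length and for library size, so that levels of different genes can be set side by side. *Med23* itself had 3.42, 2.97 and 4.14 FPKM in controls against 3.40, 3.40 and 2.91 FPKM in *med23* Δli livers (log2 fold change -0.11, adjusted p = 0.685, limma), so it did not separate the groups, which are named here by their labels. A value over the whole gene cannot show the floxed part, and cells without the deletion keep it.

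Hepcidin is a small peptide hormone that hepatocytes secrete. It binds ferroportin, the only known iron exporter of mammalian cells, and blocks the release of iron into plasma. In the liver, BMP6 made mostly by sinusoidal endothelial cells acts on hepatocytes through receptor-activated SMAD proteins and switches on *Hamp* together with *Id1* and the feedback inhibitors *Smad6* and *Smad7*, while IL6 raises *Hamp* through STAT3. Transferrin carries iron in plasma, transferrin receptors take it up or sense it, and ferritin stores it.

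The BMP ligand and its target moved apart, and hepcidin did not differ detectably. *Bmp6* was 6.60-fold higher in the livers labelled *med23* Δli, *Id1* was 7.36-fold lower, and *Hamp* lay within the spread between mice in both groups. Transferrin, its receptors, the ferritins and ferroportin did not pass the test. Of the 10 genes, 2 had an adjusted p under 0.05 (limma, Benjamini-Hochberg adjustment over all genes tested), against 21.1% of all genes tested, and both also differed by more than 2-fold, against 7.9% of all genes. Of these, 1 was higher, where 11.6% of all genes were, and 1 was lower, where 9.48% were. The 3 control and 3 *med23* Δli values did not overlap for 4 of the 10 genes (40.0%), against 43.7% of all genes tested. The median log2 fold change over the 10 genes was -0.12, beside 0.02 over all genes tested. A single gene tested by exact permutation of 3 against 3 mice cannot reach a p below 0.1.

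The upstream sequences of the hepcidin genes are shown because the BMP and IL6 routes to *Hamp* run through short elements just before its start. *Hamp* lies at chr7:30942368-30944032 and its copy *Hamp2* at chr7:30922372-30924681, both on the minus strand of mm10, and the annotation places a lincRNA gene, *Gm44662*, across both on the other strand. The bases from 250 to 11 before the RefSeq start of each gene are given 5′ to 3′ (GRCm38.p6), chr7:30944040-30944279 for *Hamp* and chr7:30924192-30924431 for *Hamp2*, with capitals on the BMP response element GGCGCC and on the STAT motif TTCTTGGAA.
Hamp: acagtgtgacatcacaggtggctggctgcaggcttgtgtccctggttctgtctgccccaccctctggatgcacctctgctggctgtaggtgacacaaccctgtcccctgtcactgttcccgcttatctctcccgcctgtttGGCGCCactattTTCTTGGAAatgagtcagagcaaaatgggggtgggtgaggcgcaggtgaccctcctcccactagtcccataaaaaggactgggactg
Hamp2: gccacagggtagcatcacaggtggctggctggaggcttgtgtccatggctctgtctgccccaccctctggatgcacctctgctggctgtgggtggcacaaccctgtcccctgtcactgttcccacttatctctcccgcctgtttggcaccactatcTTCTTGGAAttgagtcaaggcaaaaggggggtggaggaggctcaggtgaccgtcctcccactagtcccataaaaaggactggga
In *Hamp* the BMP response element lay 109 to 104 bases before the start and the STAT motif 97 to 89 bases before it. *Hamp2* held the STAT motif at 94 to 86 bases before its start but not the BMP element, where it differed by 1 base, G4A (counted from 1 at the first base of the element, the *Hamp* base first). The RefSeq start of *Hamp* lay 3 bases inside the gene as GENCODE draws it. That of *Hamp2* was also the start of a GENCODE transcript, but lay 500 bases inside the gene, so the *Hamp2* stretch falls within the bounds of the GENCODE gene. The printed stretches were otherwise much alike, with 218 of 243 aligned positions identical (89.7%). On both strands of the same 240 bases of 32851 RefSeq promoter windows, GGCGCC was present in 9.08% and TTCNNNGAA in 6.77%. In the whole windows of 300 bases, which run past the start, the shares were 11.9% and 8.3%. Windows were matched for 7 of the 10 genes. *Id1*, *Trf* and *Slc40a1* had none. In these whole windows, GGCGCC was also found 89 to 84 bases before the RefSeq start of *Tfrc*. The *Bmp6* window held an E-box, CACGTG, at 127 to 122 bases before the RefSeq start and an NRF2 half-site, TGACNNNGC, at 108 to 100 bases, but that start lay 609 bases inside the gene as GENCODE draws it, so both are within the GENCODE gene. These letters stood in 7.15% and 12.4% of all windows. The matches are a description of the sequence and say nothing on what was bound.

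*Hamp*, the gene of hepcidin, was among the most abundant transcripts of these livers and ranked 38 of all genes by mean FPKM. It had 3543, 867 and 1497 FPKM across the 3 controls against 1360.1, 1433 and 2221 FPKM in *med23* Δli livers. The highest and the lowest liver were both controls, 4.08-fold apart, and the 3 *med23* Δli livers fell between them. The group means were 1969 ± 1399 FPKM and 1671 ± 478 FPKM (SD, n = 3 each). The log2 fold change was -0.03 (SE 0.47, 95% interval -1.10 to 1.05, adjusted p = 0.971, limma), an interval that takes in 2-fold differences both ways. The sign depended on which liver was left out. The log2 fold change was 0.52 (adjusted p = 0.290, limma) without control replicate 1, the highest, and -0.50 (adjusted p = 0.400) without control replicate 2, the lowest.

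*Hamp2*, which encodes a close copy of the peptide, was present at a small fraction of the *Hamp* level. It had 5.67, 0.694 and 7.98 FPKM in the controls against 7.03, 27.8 and 7.51 FPKM in *med23* Δli livers. The groups overlapped, and *med23* Δli replicate 2 stood far above the other 5 livers. The log2 fold change was 1.78 (SE 0.88, 95% interval -0.24 to 3.81, adjusted p = 0.176, limma). It was 1.14 without *med23* Δli replicate 2 and 0.75 without control replicate 2, and neither passed the test. The liver with the highest *Hamp2* also held fat cell transcripts. The summed FPKM of 9 adipose markers was 217 in it and 23.8 to 67.1 in the other livers, with *Adipoq*, the adipocyte hormone adiponectin, at 5.65 FPKM against 0 to 0.0907, and their part in the *Hamp2* value was not tested. The 2 transcripts are alike over 388 of 420 aligned positions (92.4%) with a longest shared run of 87 bases, so reads may have been split between them in a way the sources used here do not state. *Hamp* made up 99.7% ± 0.240 of the hepcidin FPKM in controls and 99.1% ± 0.857 in *med23* Δli livers (SD, n = 3 each, exact two-sided permutation p = 0.3). With both genes summed the log2 fold change was -0.02.

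**Figure D1:**
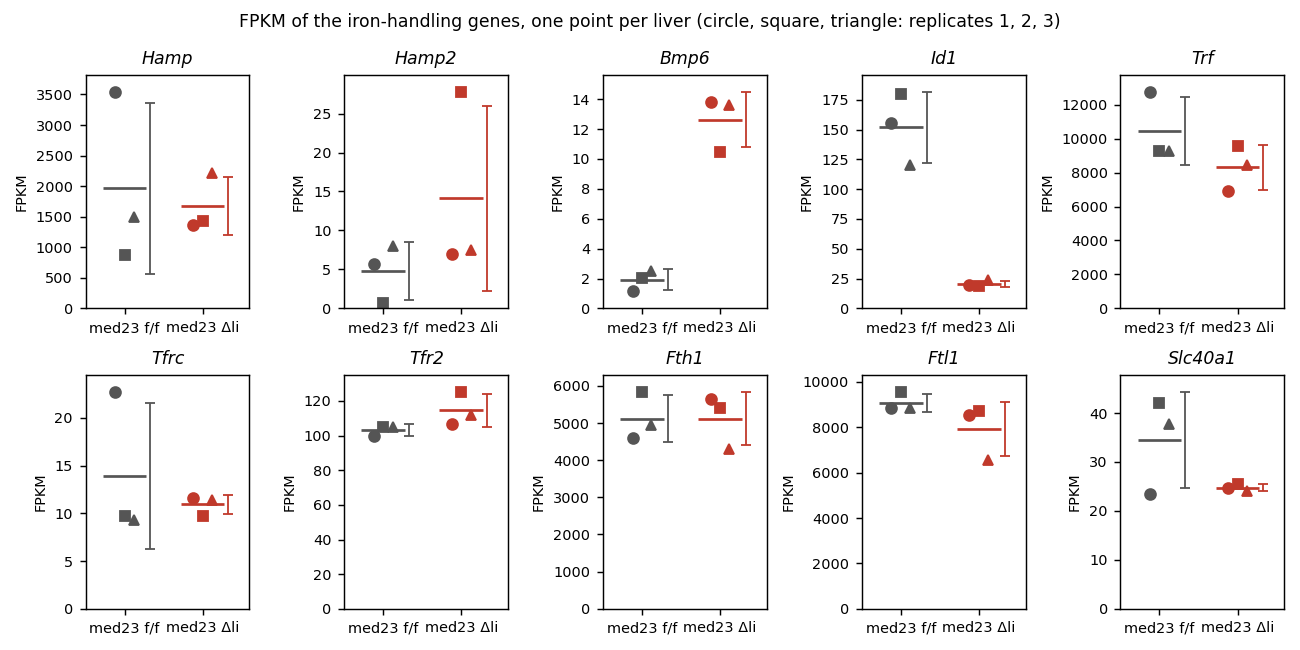
Each panel plots the FPKM of 1 iron-handling gene on a linear axis from 0, with 1 point per liver (grey, *med23* f/f; red, labelled *med23* Δli; circle, square and triangle, replicates 1, 2 and 3), a line at the group mean and a bar of ± 1 SD. The groups are far apart for *Bmp6* and *Id1*, while for *Hamp* the control livers span 867 to 3543 FPKM and enclose the 3 *med23* Δli livers.

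*Bmp6*, the ligand that couples liver iron to hepcidin, lies at chr13:38345107-38500302 on the plus strand. It had 1.16, 2.05 and 2.53 FPKM in the controls against 13.8, 10.5 and 13.6 FPKM in *med23* Δli livers. Every *med23* Δli liver stood well above the highest control. The means were 1.91 ± 0.696 and 12.6 ± 1.86 FPKM (SD, n = 3 each), with a log2 fold change of 2.72 (SE 0.27, 95% interval 2.09 to 3.34, adjusted p = 0.00173, limma). *Txndc5*, a protein disulfide isomerase gene on the opposite strand, shares 224 of the 3900 exon bases of *Bmp6* (5.74%), and the library kit that the study's methods name, TruSeq v2, does not mark strand, so reads of the 2 genes over these bases cannot be told apart. *Txndc5* stood between 141 and 165 FPKM in the controls and between 142 and 149 FPKM in the *med23* Δli livers.

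*Id1*, an inhibitor of helix-loop-helix transcription factors and a direct target of BMP-SMAD signalling, lies at chr2:152736251-152737410. It had 155, 179.8 and 121 FPKM in the controls against 19.5, 18.8 and 23.6 FPKM in *med23* Δli livers. Every *med23* Δli liver was below every control. The means were 152 ± 29.7 and 20.6 ± 2.63 FPKM, with a log2 fold change of -2.86 (SE 0.18, 95% interval -3.28 to -2.45, adjusted p = 0.000322, limma). Both *Bmp6* and *Id1* passed at an adjusted p under 0.05 under all 16 settings run (the one used here and 15 alternatives), with log2 fold changes from 2.25 to 2.94 and from -3.02 to -2.73.

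A further 5 genes known to respond to BMP fell in the same livers as *Id1*. *Id2*, a relative of *Id1*, had 324, 256 and 203 FPKM in controls and 82.4, 84.1 and 81.1 FPKM in *med23* Δli livers, which is -1.64 on the log2 scale (adjusted p = 0.00233, limma). *Id3* had 355, 357 and 292 FPKM against 114, 112 and 138 FPKM, a log2 fold change of -1.46 (adjusted p = 0.00179). The inhibitory SMAD genes *Smad7* and *Smad6*, which close the feedback loop, changed by -1.02 (adjusted p = 0.00644) and -0.89 (adjusted p = 0.0132) on the log2 scale. *Atoh8*, a transcription factor gene that responds to BMP in hepatocytes, changed by -0.85 (adjusted p = 0.0192). The groups did not overlap for any of these 5 genes, beside 43.7% of all genes tested, but they were grouped after their values had been seen, so that this count and their median log2 fold change of -1.02 follow from the choice. At an adjusted p under 0.05, *Id2*, *Id3* and *Smad7* passed in 16 of the 16 settings, *Smad6* in 14 and *Atoh8* in 13.

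Endothelial transcripts moved in the same livers. All 11 endothelial markers tested, *Stab2*, *Lyve1* and *Pecam1* among them, passed the test as lower in *med23* Δli livers, beside 9.48% of all genes tested. Their median log2 fold change was -0.94. The marker list was chosen with earlier results of these data known, so this count is a description and not independent support. Their summed FPKM was 132, 178 and 154 in controls and 76.5, 72.5 and 70.1 in *med23* Δli livers, 2.12-fold lower, and no marker was at 0 throughout. In whole liver, fewer cells of a type and less RNA per cell cannot be told apart. With each library scaled to this sum, an alternative chosen after seeing the data, *Bmp6* was 3.79 higher (SE 0.25, adjusted p = 4.49e-05, limma) and *Id1* was -1.79 (SE 0.21, adjusted p = 0.000222) on the log2 scale. This scaling moved every gene up by about 1.07 on the log2 scale, and 82.8% of all genes tested were then higher and 0.719% lower at an adjusted p under 0.05, so that the *Bmp6* call on this scale is one most genes share. The same shift fixes that a gene lower by about 1 on the unscaled values lands near 0, so the values of the other 5 genes on this scale are given as a description only. *Id2* stood at -0.56 (SE 0.24), *Id3* at -0.39 (SE 0.21), *Smad7* at 0.06 (SE 0.22), *Smad6* at 0.19 (SE 0.25) and *Atoh8* at 0.23 (SE 0.27).

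**Figure D2:**
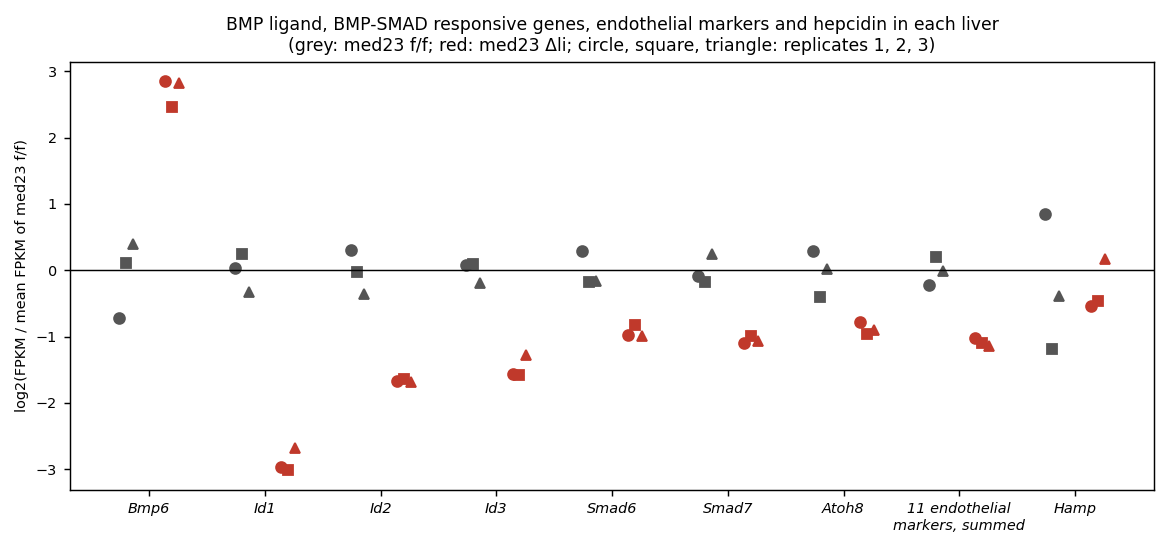
Each point is 1 liver (grey, *med23* f/f; red, labelled *med23* Δli; circle, square and triangle, replicates 1, 2 and 3), and the vertical axis is the log2 ratio of its FPKM to the control mean for *Bmp6*, *Id1*, 5 further BMP-responsive genes, the summed FPKM of 11 endothelial markers and *Hamp*. *Bmp6* lies above the controls and *Id1*, *Id2* and *Id3* lie further below them than the endothelial sum does, *Smad6*, *Smad7* and *Atoh8* lie about level with it or above it, and the *Hamp* values of the groups overlap.

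Of 25 genes tested of the BMP-SMAD route to hepcidin, besides the 10, 2 were higher, 5 were lower and 18 did not pass, a share of 28% beside 21.1% of all genes, and the median log2 fold change was -0.20. The 5 lower ones were the target genes already described. Of the low-expressed genes on the list that BMP signals can also induce, *Smad9* (-0.96, adjusted p = 0.120, limma), *Bambi* (-0.67, adjusted p = 0.211) and *Id4* (-0.20, adjusted p = 0.617) did not pass, and they were named after their values had been seen. The 2 higher ones were *Smad4*, the SMAD shared by all BMP and TGF-β receptors, with 10.9 and 15.1 FPKM on average (log2 fold change 0.48, adjusted p = 0.0447, limma), and *Gdf15*, a secreted stress-response factor of the TGF-β family, with 21.9 and 44.6 FPKM on average (0.99, adjusted p = 0.0130). *Smad4* passed in 8 of the 16 settings and *Gdf15* in 16. *Bmp2*, the other main endothelial BMP of the liver, had 3.42, 4.67 and 5.99 FPKM in controls and 3.26, 3.13 and 2.97 FPKM in *med23* Δli livers, which did not overlap but did not pass (log2 fold change -0.54, adjusted p = 0.102). The genes of the hepatocyte membrane proteins that set the strength of the signal did not pass either. *Hfe*, the gene mutated in common hereditary haemochromatosis, differed on the log2 scale by -0.29 (adjusted p = 0.165), the hemojuvelin gene *Hfe2* by -0.28 (adjusted p = 0.628) and *Tmprss6*, whose protease cleaves hemojuvelin, by -0.11 (adjusted p = 0.596).

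Of 11 genes tested on a list of IL6-STAT3 and other inputs to hepcidin, 2 were lower and none was higher. That is 18.2% called, beside 21.1% of all genes tested, and the median log2 fold change was 0.16. No tested gene of the IL6 receptor, the JAK kinases or STAT3 passed. *Stat3* differed by 0.32 (adjusted p = 0.268, limma) on the log2 scale and its feedback inhibitor *Socs3* by 0.16 (adjusted p = 0.555). *Il6* did not reach the filter, with at most 0.143 FPKM in any liver. By qRT-PCR the study reports more *Il6* message in *med23* Δli livers at this time, and values so near the floor cannot show such a difference. The 2 lower genes, *Inhba* and *Creb3l3*, were among the other inputs on the list. *Inhba*, which encodes the activin A subunit, had 14.3, 5.47 and 9.76 FPKM in controls and 1.54, 1.76 and 1.65 FPKM in *med23* Δli livers (log2 fold change -2.40, adjusted p = 0.00392). *Creb3l3*, a hepatocyte transcription factor gene of the endoplasmic reticulum stress response that can raise *Hamp*, had means of 203 and 123 FPKM (-0.71, adjusted p = 0.0402) and passed in 8 of the 16 settings, *Inhba* in 16.

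**Figure D3:**
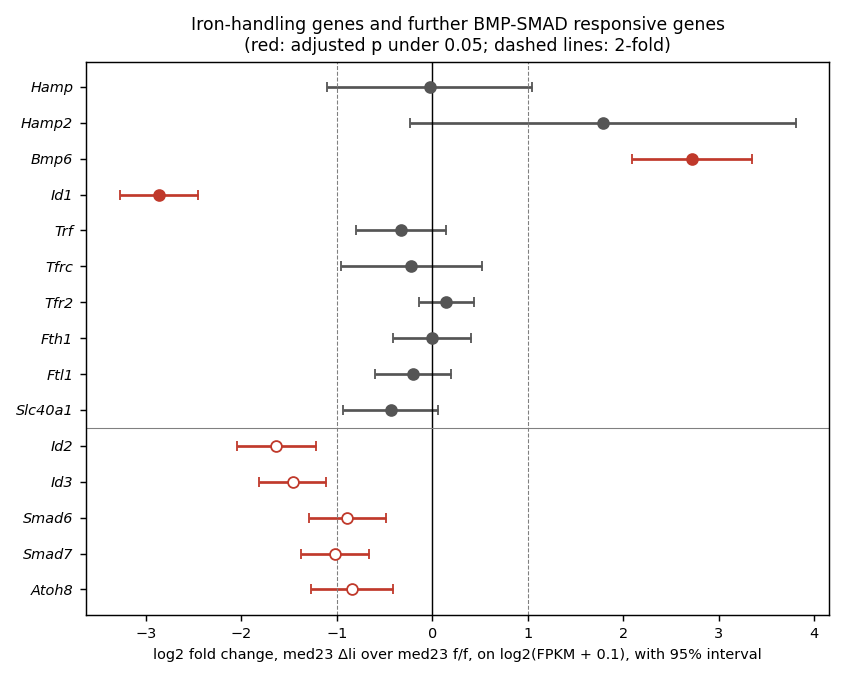
Log2 fold changes of *med23* Δli over *med23* f/f on the log2(FPKM + 0.1) scale, with 95% intervals from limma, for the 10 iron-handling genes (filled points) and 5 further BMP-responsive genes (open points); red marks an adjusted p under 0.05 and the dashed lines a 2-fold difference. *Bmp6* is at 2.72 and *Id1* at -2.86, the interval of *Hamp* runs from -1.10 to 1.05, and 6 of the other genes of the 10 have intervals inside 2-fold.

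Transferrin, the iron carrier of plasma, ranked 5 of all genes by mean FPKM. Its gene lies at chr9:103204001-103230444 on the minus strand, where the annotation has an overlapping gene, *Gm20425*, on the same strand. *Trf* had 12746.5, 9253 and 9279 FPKM in controls against 6897, 9565 and 8432 FPKM in *med23* Δli livers. The highest liver was a control and the lowest a *med23* Δli liver, but the groups overlapped. The means were 10426 ± 2009 and 8298 ± 1339 FPKM, with a log2 fold change of -0.33 (SE 0.20, 95% interval -0.80 to 0.15, adjusted p = 0.280, limma).

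*Tfrc* (chr16:32608920-32632794), the receptor through which most cells take up transferrin, had 22.7, 9.76 and 9.26 FPKM in the controls and 11.6, 9.75 and 11.4 FPKM in the *med23* Δli livers. Control replicate 1 stood alone, and the rest lay within 9.26 and 11.6 FPKM. The log2 fold change was -0.22 (SE 0.32, 95% interval -0.96 to 0.52, adjusted p = 0.646, limma), and it was 0.20 without that liver. *Tfr2* (chr5:137569840-137587481), the receptor that hepatocytes use to sense transferrin saturation, had 99.5, 105 and 105 FPKM in the controls and 107, 125 and 112 FPKM in the *med23* Δli livers. All 3 *med23* Δli livers were above all 3 controls by a small margin, and the difference did not pass (log2 fold change 0.15, SE 0.12, 95% interval -0.14 to 0.43, adjusted p = 0.416).

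Iron regulatory proteins act on translation and on message stability through iron-responsive elements. Of the 7 genes searched for them, the ferritin genes and *Tfrc* held such elements, and sites of these are shown. The elements are hairpins with a CAGTGN loop, given in capitals. They were searched as this loop with 5 paired bases on each side and a C just before them. The search ran on the coding strand of the GENCODE transcripts of the 7 genes with a promoter window. *Id1*, *Trf* and *Slc40a1* were left out of it for want of a window, as were the genes of the pathway lists, so nothing is said on sites in them. The *Fth1* site lies in the 5′ UTR at chr19:9982734-9982758 on the plus strand, the *Ftl1* site in the 5′ UTR at chr7:45459781-45459805 on the minus strand, and the first of 4 *Tfrc* sites in the 3′ UTR at chr16:32631221-32631245 on the plus strand of mm10.
Fth1: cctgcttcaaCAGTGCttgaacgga
Ftl1: cttgcttcaaCAGTGTttgaacgga
Tfrc: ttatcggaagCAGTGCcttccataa
An element of this pattern was found in 222 of 21901 protein-coding genes (1.01%). An FPKM value reads the amount of message and not its translation, so an effect at the 5′ elements would not be seen in these data.

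*Fth1* (chr19:9980598-9985098) and *Ftl1* (chr7:45457944-45459884), the heavy and light chains of ferritin, ranked 10 and 7 of all genes by mean FPKM. *Fth1* had 4592, 5823 and 4940.2 FPKM in controls against 5634, 5417 and 4306 FPKM in *med23* Δli livers, and the groups overlapped fully. Its means were 5119 ± 634 and 5119 ± 712 FPKM (SD, n = 3 each), with a log2 fold change of -0.00 (SE 0.18, 95% interval -0.41 to 0.41, adjusted p = 0.993, limma). *Ftl1* had 8845, 9549 and 8834 FPKM in the controls and 8536, 8700.0 and 6567 FPKM in the *med23* Δli livers. All 3 *med23* Δli livers were below all 3 controls, *med23* Δli replicate 3 by the most, and the difference did not pass (log2 fold change -0.20, SE 0.17, 95% interval -0.60 to 0.19, adjusted p = 0.417). The ratio of heavy to light chain FPKM was 0.563 ± 0.0454 in controls and 0.646 ± 0.0205 in *med23* Δli livers, without overlap (exact two-sided permutation p = 0.1, the smallest that 3 against 3 can give). Quantile normalization turned the sign of 3 abundant transcripts, to 0.058 for *Trf*, 0.25 for *Fth1* and 0.28 for *Ftl1*, none of which passed on either scale.

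*Slc40a1* (chr1:45908068-45926523) encodes ferroportin, the exporter that hepcidin closes, and is high in macrophages. It had 23.4, 42.2 and 37.8 FPKM in the controls against 24.7, 25.4 and 24.0 FPKM in *med23* Δli livers. The *med23* Δli livers lay close together, and control replicate 1 was level with them while the other controls stood above. The log2 fold change was -0.43 (SE 0.22, 95% interval -0.93 to 0.06, adjusted p = 0.181, limma). Without control replicate 1 it was -0.69 with an adjusted p of 0.0213, so that 1 liver decided the call. None of the 8 Kupffer cell and macrophage markers passed the test, and their summed FPKM was 190.4 to 259 in controls and 220.3 to 232 in *med23* Δli livers. Control replicate 1 thus had the highest *Hamp*, *Tfrc* and *Trf* and the lowest *Slc40a1* among the controls.

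Of 12 further genes of iron transport and reduction, 4 were higher (33.3%, beside 11.6% of all genes tested), none was lower and 8 did not pass, with a median log2 fold change of 0.31. *Steap1* and *Steap4*, of a family of metalloreductases, had means of 1.98 and 5.45 FPKM and of 33.7 and 98.5 FPKM in controls and *med23* Δli livers (log2 fold changes 1.43 and 1.44, adjusted p = 0.00902 and 0.0206, limma). *Steap3*, the reductase of the transferrin cycle in endosomes, had 9.32, 8.00 and 7.29 FPKM against 13.5, 12.1 and 12.7 FPKM (0.64, adjusted p = 0.0190). *Slc11a2*, the importer DMT1 that carries the reduced iron out of the endosome, had 21.1, 17.2 and 17.3 FPKM against 23.6, 26.3 and 29.2 FPKM (0.51, adjusted p = 0.0438). At an adjusted p under 0.05, *Steap1* passed in 16 of the 16 settings, *Steap4* in 13, *Steap3* in 12 and *Slc11a2* in 6. *Slc39a14*, the main importer of iron not bound to transferrin (0.16, adjusted p = 0.394), and *Cp*, the plasma ferroxidase ceruloplasmin (0.20, adjusted p = 0.616), did not pass.

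Among 9 iron-sensing and ferritin turnover genes, 1 was higher and 1 was lower (22.2% called, beside 21.1% of all genes tested), with a median log2 fold change of 0.42. *Aco1*, which encodes iron regulatory protein 1, had 40.6, 32.5 and 30.7 FPKM in controls and 60.5, 58.1 and 55.6 FPKM in *med23* Δli livers (log2 fold change 0.76, adjusted p = 0.0123, limma). Its partner *Ireb2*, iron regulatory protein 2, had 8.47, 6.06 and 10.3 FPKM against 10.6, 13.5 and 12.2 FPKM and did not pass (0.57, adjusted p = 0.0843). *Epas1*, the hypoxia factor HIF2α, had 49.5, 36.7 and 35.8 FPKM against 20.5, 29.1 and 21.1 FPKM (-0.79, adjusted p = 0.0266). *Epas1* is also abundant in endothelial cells, whose markers fell in these livers, and their part in its value was not tested. *Aco1* passed in 14 of the 16 settings and *Epas1* in 12.

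Of 7 genes of haem iron recovery, 2 were higher and none was lower (28.6% called, beside 21.1% of all genes tested), with a median log2 fold change of -0.30. *Hmox1*, the haem oxygenase that frees iron from haem, had 31.8, 34.3 and 33 FPKM in controls and 52.8, 50.4 and 46.5 FPKM in *med23* Δli livers (log2 fold change 0.59, adjusted p = 0.0150, limma). *Lrp1*, the receptor for haem bound to hemopexin among many ligands, had means of 32.5 and 47.4 FPKM (0.55, adjusted p = 0.0265). Over all 77 genes of these pathway lists, the iron-sulfur genes included, 11 were higher and 9 lower, together 26.0% beside 21.1% of all genes tested, and the median log2 fold change was -0.02. This count of 20 was 7, 8 and 9 without *med23* Δli replicates 1, 2 and 3, 21, 17 and 24 without control replicates 1, 2 and 3, and 13 with the replicate number as a block. *Hmox1* passed in 14 of the 16 settings and *Lrp1* in 12.

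**Figure D4:**
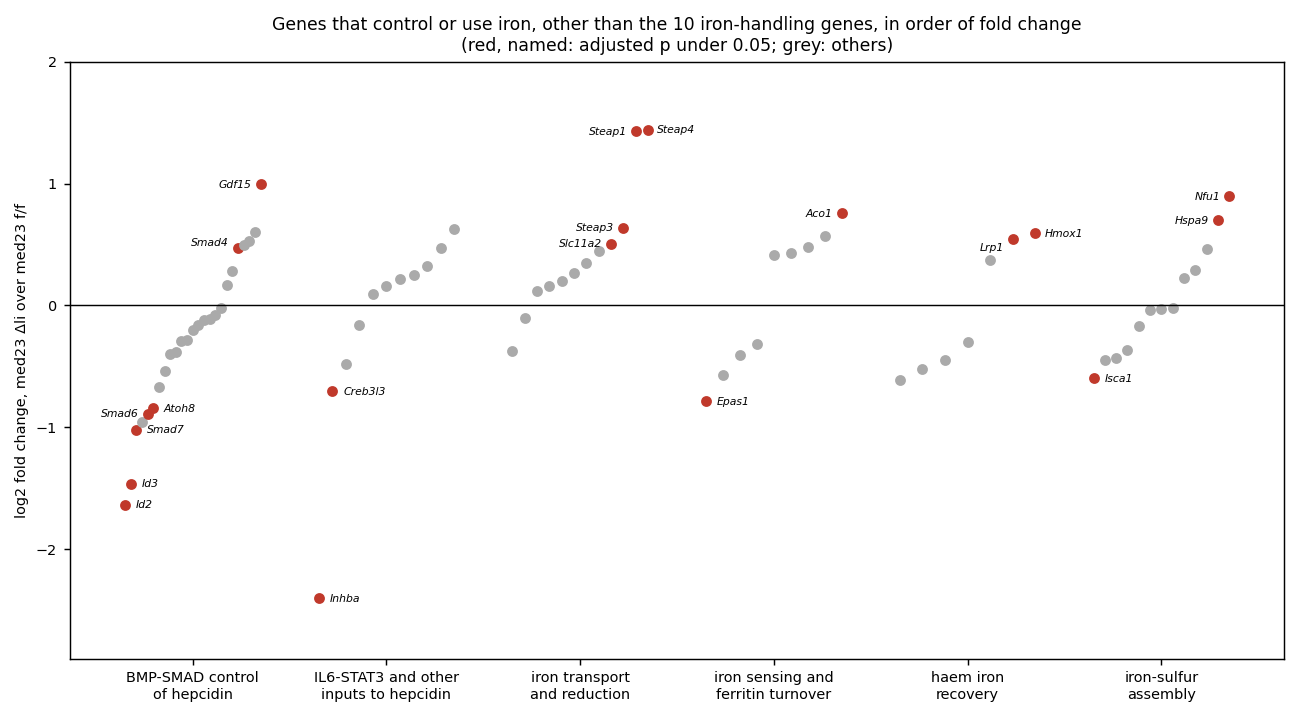
Log2 fold changes of *med23* Δli over *med23* f/f for the 77 tested genes of 6 pathway lists other than the 10 iron-handling genes, ordered within each list; red and named points have an adjusted p under 0.05 (limma) and grey points do not. The lowest points are *Inhba* at -2.40 and the BMP targets *Id2* and *Id3*, and the highest are *Steap1* and *Steap4*.

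Transcripts of other cells, and the shape of the libraries, differed beside these genes. Hepatocyte markers were abundant in every liver, with a summed FPKM of 26468 to 36482 in controls and 23406 to 29863 in *med23* Δli livers, and 1 of 8 was lower. Over all genes tested, 11.6% were higher and 9.48% lower, beside which these counts are to be read. Pericentral hepatocyte markers, which mark the zone that CCl4 injures, were higher for 3 of 7, *Cyp2e1*, *Cyp1a2* and *Axin2* (summed FPKM 379 to 523 against 799 to 959). *Cyp2e1* made up most of this sum, with means of 254 and 590 FPKM. The others did not pass, and 2 of them, *Slc1a2* and *Rhbg*, had log2 fold changes below 0. Periportal markers were lower for 2 of 7. Stellate cell markers were lower for 3 of 8 (172 to 215 against 113 to 144), and the erythroid markers had summed FPKM of 85.2 to 230.2 against 124 to 209.6, with 1 of 6 higher, *Hba-a1*, which passed the filter only through the *med23* Δli livers, while its near-identical copy *Hba-a2* had a log2 fold change of -0.13. No neutrophil (5 tested), cholangiocyte (5 tested), adipose (4 tested) or pancreas (1 tested) marker passed, and 6 of 10 pancreas markers were at 0 in every liver. The 10 most abundant genes took 17.1% to 20.3% of the summed FPKM in controls and 11.9% to 13.7% in *med23* Δli livers. Quantile normalization, which gives all libraries the same distribution, turned the signs of *Trf*, *Fth1* and *Ftl1* as given with ferritin. Quantile normalization and the endothelial scaling given with *Bmp6* and *Id1* rescale whole libraries and cannot give the part of a cell type in a gene. The part of the differences in cell transcripts and library shape in the values of the iron genes was not tested.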

How the data were processed

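RNA-seq of 6 livers was used, 3 wt (*med23* f/f) and 3 med23 ko (*med23* Δli), each library from 1 mouse. The authors checked reads with FastQC, aligned them to mm10 with TopHat and ran Cuffdiff, per the labels and the study's methods. Libraries were made with TruSeq v2, which does not mark strand. Versions, annotation and counting options are not given in the sources used here. The authors deposited 1 table with an FPKM value for each gene and library, used here, beside their group values and their own comparison (log2 fold change, test statistic, p and q), which was not used. FPKM values keep no read counts, low values gave no whole reads, and the depth of each library is not given in the sources used here, so the spread between mice is the only error given. No column of values was left unmapped.

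A mean of 0.5 FPKM or more was required (11956 of 24346 genes), and these genes were compared as log2(FPKM + 0.1) with limma 3.58.1 in R 4.3.3 (lmFit, eBayes with trend), with Benjamini-Hochberg adjustment over all of them, after the script was tested on simulated data. Fold changes on this scale understate changes of low genes. Fold of means is the ratio of mean FPKM. Ratios had an exact two-sided permutation test. The 10 genes, the pathway lists and the marker lists were chosen with earlier results of these data known. All 10 genes are named. From the pathway lists, genes with an adjusted p under 0.05 (at most 8 a list) and a fixed set of regulators are named. *Smad9*, *Bambi* and *Id4* were added after their values had been seen. *Txndc5* and the marker genes named, such as *Stab2*, *Lyve1*, *Pecam1* and *Adipoq*, are given because they bear on a result. For *Hamp*, *Hamp2* and *Bmp6*, the 4 genes with the most similar profile are named. The settings were the one above and 15 others: other pseudocounts, filters, scalings and eBayes options, the replicate number as a block, and each library left out in turn.

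Positions and transcripts are from GENCODE M21 (mm10), and promoters from RefSeq (GRCm38.p6). Sequences, summaries and figures were made with biopython 1.88, pandas 2.3.3, matplotlib 3.10.9, scipy 1.17.1 and numpy 2.4.6 in Python 3.11.15.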

Additional observations from a re-analysis of the deposited data

How the results depend on the processing

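*Bmp6* and *Id1* kept their direction and passed the test in all 15 alternatives, and 141 of the 151 planned recalculations of the 10 log2 fold changes kept direction and side of the threshold. The replicate numbers did not pair the livers (correlations of same-numbered deviations -0.022, -0.046 and -0.124), and with the replicate number as a block the count of pathway genes with an adjusted p under 0.05 was 13 instead of 20, while 2 of the 10 iron-handling genes still passed. With a pseudocount of 1, 229 genes were called lower by more than 2-fold instead of 412. Quantile normalization gave *Trf* 0.058, *Fth1* 0.25 and *Ftl1* 0.28 on the log2 scale. With each library left out in turn, log2 fold changes ranged from -0.50 to 0.52 for *Hamp*, from -0.45 to 0.20 for *Tfrc*, from -0.077 to 0.12 for *Fth1* and from -0.69 to -0.27 for *Slc40a1*. The pathway count ranged from 7 to 24, genes called higher from 319 to 730 (532 with all livers) and genes called lower from 268 to 529. The cause of these changes was not tested. Adding ferritin retrogenes to *Fth1* and *Ftl1* was not run, since no such rows were matched. Without counts, depth cannot be weighed for low genes such as *Hamp2* and *Bmp6*. The labels tie no library to a litter, and p-values cover the spread between these mice only.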

Other observations

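Iron-sulfur cluster assembly, a mitochondrial use of iron, had 2 genes higher, 1 lower and 10 that did not pass among 13 tested (23.1% called, beside 21.1% of all genes tested), with a median log2 fold change of -0.03. *Nfu1*, a late cluster carrier, had 33.3, 25.7 and 20.2 FPKM in controls and 49.6, 45.6 and 49.8 FPKM in livers labelled *med23* Δli (log2 fold change 0.90, adjusted p = 0.0165, limma). *Hspa9*, the mitochondrial chaperone of the pathway, had means of 247 and 398 FPKM (0.70, adjusted p = 0.0308). *Isca1*, a cluster assembly scaffold gene, had 69.1, 71.5 and 68.2 FPKM against 46.5, 47.6 and 43.8 FPKM (-0.60, adjusted p = 0.0127). At an adjusted p under 0.05, *Nfu1*, *Hspa9* and *Isca1* passed in 13, 10 and 13 of the 16 settings.

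Profiles over the 6 livers were compared by the root mean square difference of centred log2 values. The genes most like *Hamp* were *Tle3* (0.241), *Gm5424* (0.264), *Brip1os* (0.267) and *Ppard* (0.287), all of which were highest in control replicate 1 and lowest in control replicate 2, as *Hamp* was. Those most like *Hamp2* were *Gm10653* (0.488), *Cyp17a1* (0.534), *Ppargc1a* (0.582) and *Flrt3* (0.589), each highest in *med23* Δli replicate 2 and lowest in control replicate 2. Those most like *Bmp6* were *Rab11fip5* (0.251), *AW549542* (0.255), *Slco1b2* (0.287) and *Cox6a2* (0.289). *Slco1b2*, a hepatocyte uptake transporter, had 8.33, 14.4 and 13.0 FPKM in controls and 94.1, 93.6 and 123 FPKM in livers labelled *med23* Δli.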
